A study of Danio rerio with 6 samples.

Results

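Transcripts of cell cycle and DNA replication genes were followed in the anterior forebrain (telencephalon) of zebrafish males that had reached sexual maturity. Each of 59 listed genes that act in replication licensing, DNA synthesis or mitosis was sought among the probe sets that GEO's platform annotation pairs with a single gene symbol. Of these, 49 genes were measured by 65 probe sets, out of 8793 genes in all, and 10 had no probe set under their symbol (rfc2, rrm2, ncapd2, cenpa, ccne2, cks2, aurkb, ube2c, bub1 and tpx2). Fish of the first group were exposed to fadrozole, a non-steroidal inhibitor of the estrogen-producing enzyme aromatase, at 200 µg/L for 10 days, and fish of the second group were controls. The labels give no strain, age in days or genotype, and no vehicle for the controls. Each group had 3 arrays, and each array carried RNA from a pool of about 30 telencephalons, so differences between single fish cannot be seen.

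A cell that is about to divide loads the MCM helicase onto its replication origins with the help of Cdc6 and Cdt1, copies its DNA behind that helicase, and then separates the copies on a mitotic spindle under the control of cyclin-dependent, Polo and Aurora kinases. Most of these genes are transcribed in dividing cells in the phase in which their product is needed, and for that reason their transcripts are widely used as markers of proliferation. The adult zebrafish telencephalon keeps dividing cells throughout life, mainly radial glia along the ventricle and the neuroblasts that they give rise to, and radial glia are also the cells of the fish brain that make aromatase. In a whole telencephalon these cells are few, and a transcript that is lower because fewer cells make it cannot be told apart from one that is lower in each cell.

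The deposited values are ratios of each probe set to its median over the 3 control arrays. All levels below are log2 of that ratio after removal of each array's overall shift. The level 0 therefore lies near a gene's control median but not exactly at it. A difference is the fadrozole mean minus the control mean on this scale. Unless SD is written, ± gives limma's standard error of that difference, with n = 3 arrays per group. For a gene with 1 probe set, the control array that holds the median ratio takes the level 0.11, -0.25 or 0.14 (control replicate 1, 2 or 3), so these values recur. Because the ratios hold no brightness, neither the level of a gene relative to another gene nor its distance from background is known. For the same reason the 15 measured of 17 listed telencephalon marker genes could not show that the tissue is telencephalon. Their differences lay between -0.28 and 0.20.

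As a set, the cell cycle genes were spread around 0 after fadrozole. Of the 49 genes, 27 (55.1%) had a difference above 0, against 50.0% of all genes. Their median difference was 0.08, against 0 for all genes, and single genes ran from -1.97 to 1.41. Without control replicate 2 the median was -0.12, with 20 genes higher, and without fadrozole replicate 1 it was -0.01. The difference was smaller than its own standard error for 32 of the 49 genes (65.3%, against 68.7% of all genes). A change of at least 1.5-fold was measured for 19 (38.8%, against 26.9% of all genes), and the spread between replicate arrays was also wider for these genes, with a median residual SD of 0.74 against 0.53.

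No cell cycle gene passed limma's test after Benjamini-Hochberg adjustment over the 8793 genes, and neither did any other gene (0 of 8793, 0%). At an unadjusted p under 0.05, 360 of all genes (4.09%) were found. With at least 1.5-fold change as well, the rule was met by 2 cell cycle genes (4.08%, against 4.08% of all genes), haus5 and cdt1. Both were lower, against 1.98% of all genes that met the rule in that direction, and 0 were higher, against 2.1%. haus5 is on the list because of its value in these data, and without it 1 of 48 genes (2.08%) met the rule. Without fadrozole replicate 1, 7 genes met it (14.3%, against 4.16% of all genes in that fit), with cdk1, plk1, birc5a and mcm7 added among 6 lower ones and kif23 as the 1 higher. In the larger slide run alone haus5 was the 1 gene that did. The 3 fadrozole arrays lay below the 3 control arrays for 3 genes, haus5, cdt1 and mcm7, against 3.89% of all genes, and above them for 0, against 3.93%. Without haus5 the lower ones were 2 of 48 (4.17%). In both directions together these were 6.12% of the cell cycle genes, all 3 with at least 1.5-fold change, against 7.82% of all genes without and 5.25% with that minimum.

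**Figure D1:**
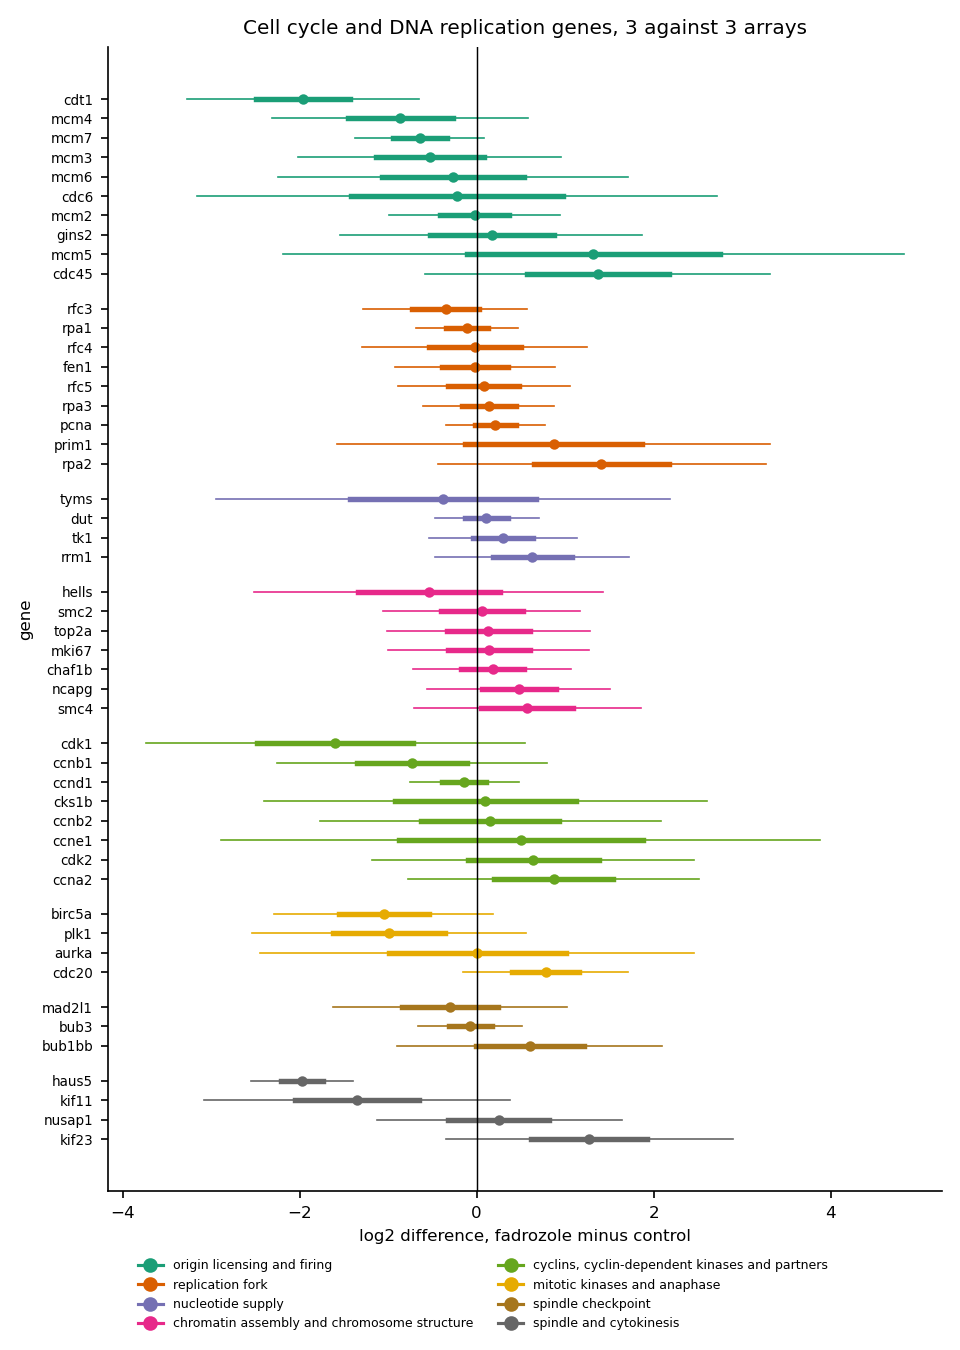
Log2 difference (fadrozole minus control) of each of the 49 measured genes on the x axis, grouped by role on the y axis; points are estimates of the limma fit, thick bars 1 standard error and thin bars the 95% confidence interval. The intervals of haus5 and cdt1 lie below 0, and those of the other 47 genes include it.

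haus5 encodes a subunit of augmin, a complex that starts new microtubules on the sides of existing ones in the mitotic spindle. It was at -0.30, -0.05 and 0.14 on control replicates 1, 2 and 3, and at -1.96, -2.03 and -2.14 on fadrozole replicates 1, 2 and 3. The fadrozole arrays lay within 0.09 (SD) of each other and far below every control array. The difference was -1.97 ± 0.24, or 3.93-fold lower, and limma gave an unadjusted p of 0.000165, which became 0.471 after adjustment. It was the same within both runs of slide numbers, at -1.97 in the larger and -1.98 in the smaller. The exact permutation p (two-sided) was 0.1, the smallest that 3 against 3 arrays allow. haus5 was listed with its value in these data already known, so this value describes why it stands here and supports nothing further, and it rests on 1 probe set.

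cdt1, whose product loads the MCM helicase at replication origins, lay almost as far below. It was at 0.11, 0.23 and -0.18 on control replicates 1, 2 and 3, and at -2.81, -2.10 and -0.80 on fadrozole replicates 1, 2 and 3. All 3 fadrozole arrays were lower than every control array, but they were spread over 2 units, with an SD of 1.02. The difference was -1.96 ± 0.53, or 3.89-fold, with a 95% interval from -3.27 to -0.65 and an adjusted p of 0.945 in limma. The unadjusted p was 0.0105, and 0.0953 in the larger slide run alone (-1.78 ± 0.80). This gene too was measured by 1 probe set.

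mcm7, a subunit of the helicase itself, was the remaining gene whose groups did not overlap. Control replicates 1, 2 and 3 were at 0.11, 0.39 and 0.13, and fadrozole replicates 1, 2 and 3 at 0.00, -0.47 and -0.83. The nearest arrays of the groups were 0.11 apart. The difference was -0.64 ± 0.30 (1.56-fold), with an unadjusted p of 0.0736 in limma.

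The other 5 subunits of the MCM ring did not follow a common direction array by array. mcm4 was at 0.11, -0.87 and 0.66 on control replicates 1, 2 and 3 and at -1.87, -0.18 and -0.63 on fadrozole replicates 1, 2 and 3. mcm3 was at 1.02, -0.25 and -0.92 on the control arrays and at -0.85, -1.10 and 0.21 on the fadrozole arrays. In both genes the groups overlapped, and the differences were -0.86 ± 0.59 and -0.53 ± 0.61. The mcm3 value averages 2 probe sets of opposite sign, at 0.16 ± 0.55 and -1.22 ± 1.01. mcm2 was at 0.11, -0.26 and 0.26 on the control arrays and at -0.74, 0.46 and 0.31 on the fadrozole arrays, a difference of -0.02 ± 0.39. mcm6 was steady on the control arrays, at 0.11, -0.23 and 0.09, and scattered on the fadrozole arrays, at 0.47, -2.15 and 0.85. Its difference of -0.27 ± 0.80 came from fadrozole replicate 2, and without that array it was 0.67. mcm5 was at 0.11, -1.09 and 2.84 on the control arrays and at -0.62, 3.15 and 3.29 on the fadrozole arrays, so that high and low arrays occurred in both groups (1.32 ± 1.43). In total 5 of the 6 subunits had a difference below 0, with a median of -0.40, and the mean of the 6 was 0.26, -0.38 and 0.51 on control replicates 1, 2 and 3 and -0.60, -0.05 and 0.53 on fadrozole replicates 1, 2 and 3. The highest mean, 0.53, and the lowest, -0.60, were both on fadrozole arrays. The highest rested on mcm5, at 3.29 on fadrozole replicate 3, where the other subunits lay between -0.83 and 0.85. A mean without mcm5 is not given here.

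**Figure D2:**
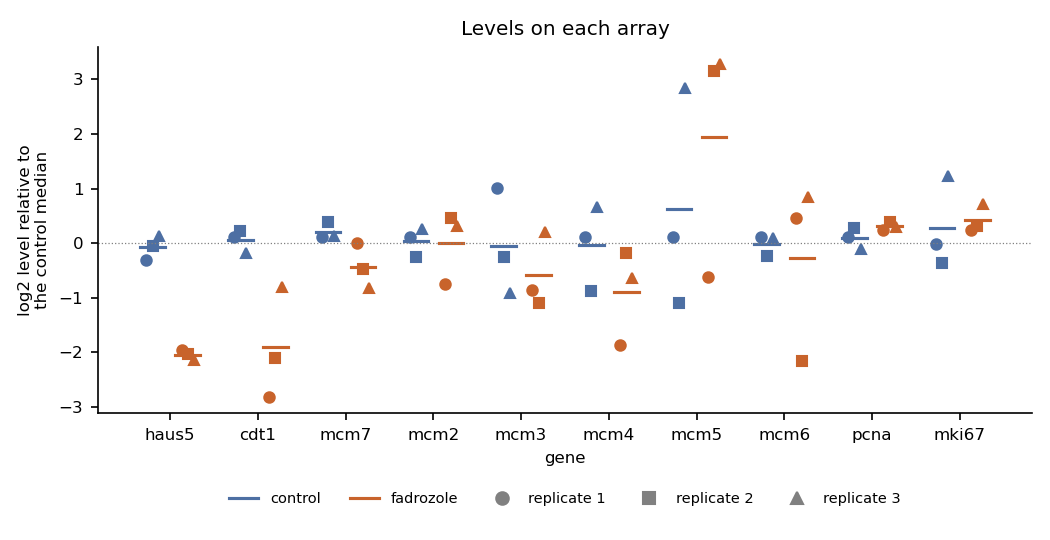
Log2 level relative to the control median (y axis) of 10 genes (x axis) on each array; symbols mark the replicate, colours the group and short lines the group mean. Fadrozole arrays lie below all control arrays in haus5, cdt1 and mcm7, and the groups overlap in the other 7 genes.

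The rest of the licensing and firing genes pointed both ways. Of the 10 measured, 7 were lower and 3 higher, with a median of -0.24. cdc45, which travels with the helicase, was at 1.37 ± 0.80, and limma's unadjusted p was under 0.05 in 1 of 16 fits. That fit left out control replicate 3 (2.15 ± 0.58, p of 0.0142). cdc45 was at 0.67 ± 0.68 without control replicate 2, and at 0.46 ± 0.81 in the larger slide run alone. gins2, a subunit of the GINS complex of the same helicase, was at 0.17 ± 0.70, with control replicate 2 at -1.93. cdc6, which acts beside cdt1, was at -0.22 ± 1.2, and its fadrozole arrays ran from -2.54 to 2.19. None of these 3 showed the separation seen in cdt1.

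At the replication fork, the sliding clamp gene pcna was among the most steadily measured genes of the set. It was at 0.11, 0.28 and -0.10 on control replicates 1, 2 and 3 and at 0.25, 0.38 and 0.30 on fadrozole replicates 1, 2 and 3. The groups overlapped only through control replicate 2, and the difference was 0.21 ± 0.23, with a 95% interval from -0.35 to 0.77. For pcna a change of 2-fold in either direction therefore lay outside the interval. The single-strand binding protein genes rpa1 and rpa3 were at -0.11 ± 0.24 and 0.14 ± 0.30, and the flap nuclease gene fen1 at -0.02 ± 0.37. rpa2, of the same single-strand binding complex, was at 1.41 ± 0.76, with 1 control array at -1.57 and the fadrozole arrays from 0.62 to 1.96. The clamp loader genes rfc3, rfc4 and rfc5 lay between -0.35 and 0.08, and the primase gene prim1 was at 0.87 ± 1.00. Of these 9 genes 5 were higher and 4 lower, with a median of 0.08.

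Among enzymes that supply nucleotides for DNA, 3 of 4 genes were higher, with a median of 0.21. The ribonucleotide reductase subunit gene rrm1 was at 0.63 ± 0.45 and the thymidine kinase gene tk1 at 0.30 ± 0.34. dut, which keeps uracil out of DNA, had control arrays within 0.01 (SD) of each other and a difference of 0.11 ± 0.24. The thymidylate synthase gene tyms was at -0.38 ± 1.05, and its arrays ran from -2.74 to 0.48 in the control group alone.

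Genes of chromatin assembly and chromosome structure included mki67, the gene of the Ki-67 protein by which dividing cells are commonly stained. It was at -0.02, -0.36 and 1.23 on control replicates 1, 2 and 3 and at 0.24, 0.31 and 0.71 on fadrozole replicates 1, 2 and 3. Every fadrozole array lay between the lowest and the highest control array, and the difference was 0.14 ± 0.46 (95% interval -1.0 to 1.27). The gene of DNA topoisomerase 2, top2a, was at 0.13 ± 0.47, and the histone chaperone gene chaf1b at 0.18 ± 0.36. The condensin genes ncapg, smc2 and smc4 were at 0.48 ± 0.42, 0.06 ± 0.46 and 0.57 ± 0.52, and hells, a chromatin remodeller, at -0.54 ± 0.80. In this role 6 of 7 genes were higher, with a median of 0.14, and 0 of them by 1.5-fold.

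Cyclins and their kinases showed the widest scatter, with a median residual SD of 1.1 over 8 genes. cdk1, the kinase that drives entry into mitosis, had the lowest difference of the role at -1.60 ± 0.88. It was at 0.15, -0.79 and 0.14 on control replicates 1, 2 and 3 and at -0.47, -3.71 and -1.11 on fadrozole replicates 1, 2 and 3, so the groups overlapped through control replicate 2. Of its cyclin partners, ccnb1 was at -0.73 ± 0.62, ccnb2 at 0.15 ± 0.78 and ccna2 at 0.87 ± 0.67. cdk2 and its partner ccne1, which act at the start of DNA synthesis, were at 0.64 ± 0.74 and 0.50 ± 1.38, and the kinase-binding protein gene cks1b at 0.10 ± 1.02. The cyclin D gene ccnd1, which responds to growth signals earlier in the cycle, was at -0.14 ± 0.25, with a 95% interval from -0.75 to 0.48.

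The genes of mitosis lay on both sides of 0 in each of their roles. Of the mitotic kinases, plk1 was at -0.99 ± 0.63 and aurka at 0.01 ± 1.00. birc5a, which encodes a survivin, a partner of Aurora B kinase, was at -1.05 ± 0.51, and cdc20, which switches on the anaphase-promoting complex, at 0.78 ± 0.38. Limma's unadjusted p was 0.0843 for birc5a and 0.0868 for cdc20. For birc5a fadrozole replicate 1 lay among the control arrays at -0.19 while replicates 2 and 3 were at -1.38 and -1.77. For plk1 the same array, at 0.42, lay among the controls, with replicates 2 and 3 at -1.81 and -1.28. Of the spindle checkpoint, bub1bb was at 0.60 ± 0.61, bub3 at -0.07 ± 0.24 and mad2l1 at -0.30 ± 0.54.

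The spindle motors kif11 and kif23 lay on opposite sides. kif11, which pushes the spindle poles apart, was at 0.11, -1.05 and 0.67 on control replicates 1, 2 and 3 and at -2.53, -1.49 and -0.29 on fadrozole replicates 1, 2 and 3 (-1.35 ± 0.70). kif23, which acts in the central spindle during cytokinesis, was at 0.76, -0.40 and -0.13 on the control arrays and at 0.36, 1.02 and 2.66 on the fadrozole arrays (1.27 ± 0.66). In both genes 1 fadrozole array overlapped the control group, and limma's unadjusted p was 0.104 for each. nusap1, which binds spindle microtubules, was at 0.25 ± 0.57.

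**Figure D3:**
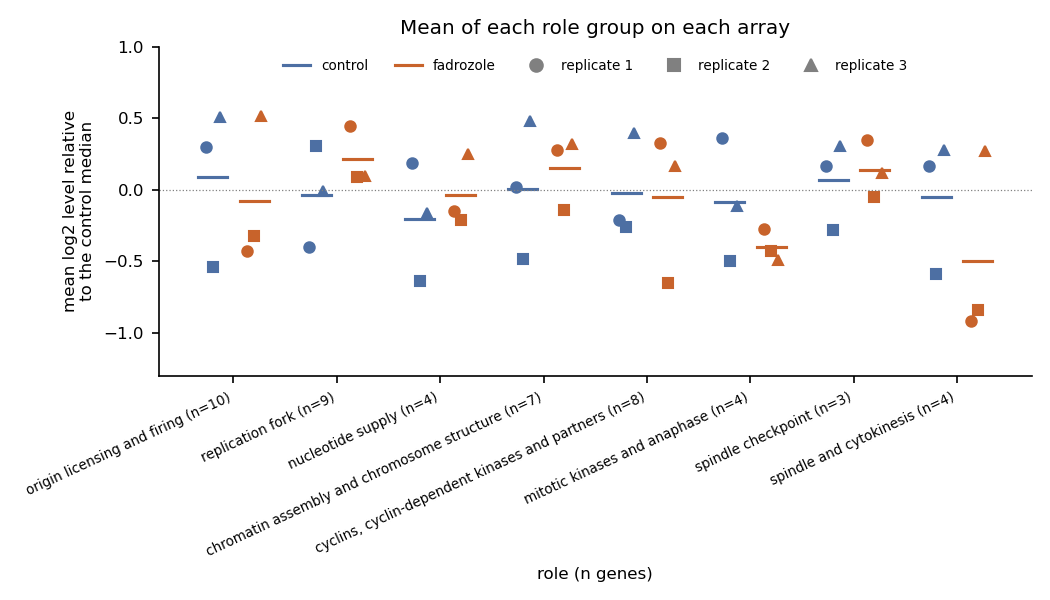
Mean log2 level relative to the control median (y axis) of the measured genes of each role (x axis, with the number of genes) on each array; symbols mark the replicate, colours the group and short lines the group mean. The groups overlap in all 8 roles.

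Averaged by role, no role separated the groups. For the 4 genes of mitotic kinases and anaphase, control arrays averaged -0.08 ± 0.43 (SD) and fadrozole arrays -0.40 ± 0.12 (SD). For the 9 replication fork genes the averages were -0.03 ± 0.36 (SD) and 0.21 ± 0.21 (SD) in the same order, and for all 49 genes -0.01 ± 0.29 (SD) and -0.03 ± 0.26 (SD). The spread between replicates was larger on the fadrozole arrays for 32 of the 49 genes (65.3%), against 43.3% of all genes. Only 8 of the 49 genes (16.3%, against 33.7% of all genes) were measured closely enough for their 95% interval to lie wholly within a 2-fold change either way, namely mcm2, pcna, rpa1, rpa3, fen1, dut, ccnd1 and bub3. For the other 41 genes the interval reached past 2-fold in at least 1 direction.

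Probe sets of the same gene often disagreed. Of the 11 cell cycle genes with several probe sets, 4 had all of them on one side of 0 (ccnd1, kif23, nusap1 and tk1), and over all 1539 such genes the share was 45.6%. The 5 probe sets of top2a ran from -1.45 ± 0.97 to 2.1 ± 0.59. The highest of them carries the same sequence accession as another that was at -0.24 ± 0.45, and their identifiers differ in 1 letter, S against A. The fadrozole arrays lay above the control arrays on the highest top2a probe set and on the higher kif23 one (1.87 ± 0.65), and overlapped them on the other probe sets of both genes. The 3 probe sets of mki67 were at -0.83 ± 1.15, -0.06 ± 0.37 and 1.30 ± 0.61, and the first of these held control replicate 3 at 3.81. Those at -0.83 and -0.06 share the leading number of their identifiers with the only probe set of plk1. Whether they are assigned to the right gene was not tested. Identifiers with the letter A belong to 13 of the 65 probe sets, and 6 genes were measured by such probe sets alone, among them haus5 and cdt1. The meaning of the letter is not given in the sources used here, and its part in the results was not tested.

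**Figure D4:**
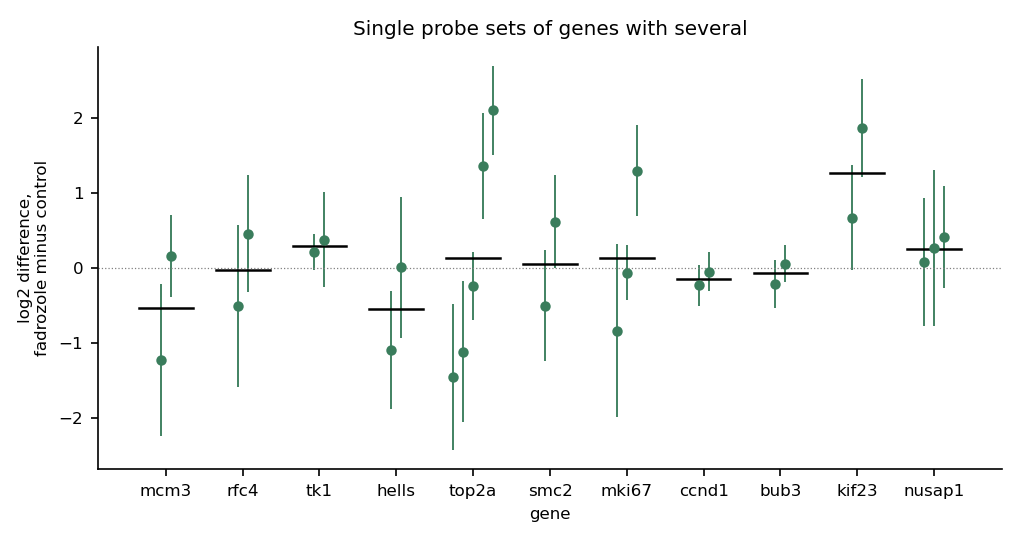
Log2 difference (fadrozole minus control, y axis) of each probe set of the 11 genes that have several (x axis); points are estimates of the limma fit over probe sets, bars 1 standard error and horizontal lines the gene's own difference. Probe sets of top2a run from -1.45 to 2.1.

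Levels were also compared between slides, whose numbers the labels give. These numbers fall into 2 runs, with replicates 1 and 3 of both groups in the larger (4 arrays) and replicate 2 of both groups in the smaller (2 arrays). The labels do not say what a run shares. This comparison was chosen after the data had been seen, and it was fitted in limma with the treatment as a second term. At an unadjusted p under 0.05, 8 of the 49 genes (16.3%) differed between the runs, against 8.85% of all genes, and 0 passed the adjusted test (0% of all genes). Of these 8, 7 were lower and 1 higher in the smaller run. When the 49 genes were called afresh with no shift removed, 4 were lower and 2 higher. The counts were the same with the arrays' shift removed by plain median centring or quantile normalisation. Without control replicate 3, 4 were lower. The shares of all genes in these other fits are not given here, so their counts stand without a background. The 2 arrays of the smaller run lay below all 4 others for 11 of the 49 genes (22.4%, against 10.7% of all genes) and above them for 2 (4.08%, against 12.5%).

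ccne1 was the clearest of these, at 0.11 and 0.91 on control replicates 1 and 3, 0.58 and 0.98 on fadrozole replicates 1 and 3, and -3.31 and -2.35 on replicate 2 of the groups. Both arrays of the smaller run were thus far below the 4 others, and the difference was -3.48 ± 0.36 with an adjusted p of 0.259 in limma. cks1b followed at -2.47 ± 0.41, while ccnb2 went the other way at 1.91 ± 0.29. nusap1 (-1.31 ± 0.26), cdk1 (-1.93 ± 0.53), top2a (-0.98 ± 0.29), rfc5 (-0.77 ± 0.27) and cdc20 (-0.73 ± 0.27) made up the 8. Between fadrozole and control, by comparison, ccne1 differed by 0.50 ± 1.38 and cks1b by 0.10 ± 1.02.

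**Figure D5:**
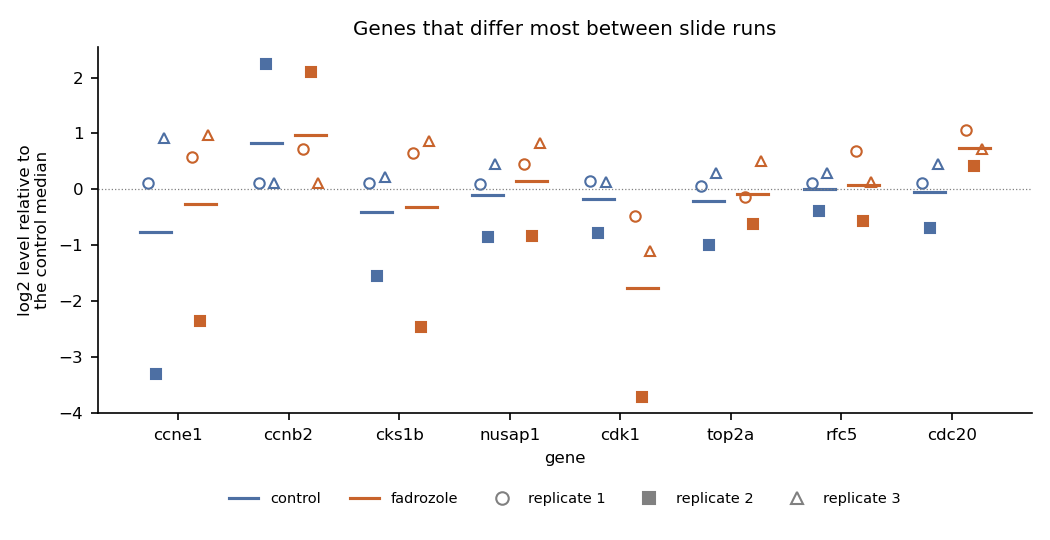
Log2 level relative to the control median (y axis) of the 8 genes with an unadjusted p under 0.05 between slide runs (x axis) on each array; filled squares are the arrays of the smaller run (replicate 2), open symbols those of the larger run, colours the group and short lines the group mean. In ccne1 and cks1b both filled squares lie below all open symbols, and in ccnb2 both lie above them.

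Further cell cycle genes outside the set, 178 in lists on replication, mitosis and regulation, were measured for 122. Of these, 65 were higher and 57 lower, with a median difference of 0.06. By an unadjusted p under 0.05 in limma with at least 1.5-fold change, 2 were higher (1.64%, against 2.1% of all genes) and 0 lower (against 1.98%), so these shares were near or below the background. gins3, which encodes another subunit of the GINS complex, was at 0.11, 0.56 and -0.32 on control replicates 1, 2 and 3 and at 1.80, 1.59 and 1.38 on fadrozole replicates 1, 2 and 3. All fadrozole arrays were above all control arrays, at 1.47 ± 0.31 with an adjusted p of 0.717 in limma. ccnf, an F-box protein gene that limits DNA synthesis to once per cycle in mammalian cells, was at 0.11, 1.44 and -0.59 on the control arrays and at 2.98, 1.81 and 2.19 on the fadrozole arrays. These groups did not overlap either (2.00 ± 0.60, adjusted p of 0.969 in limma), and the difference was 2.82 in the larger slide run and 0.36 in the smaller. Without overlap, 4 of the 122 genes lay above the controls (3.28%, against 3.93% of all genes) and 7 below them (5.74%, against 3.89%). Of the 35 measured regulators, 6 lay below (17.1%) and 2 above (5.71%). In the other lists 1 of 54 mitosis genes (1.85%) and 0 of 33 replication genes lay below.

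Markers of some cell types that can divide in this tissue were read beside these values. Of 17 measured radial glia genes, 10 were higher and 7 lower, with a median difference of 0.06. The rule of unadjusted p under 0.05 and 1.5-fold change was met by cyp19a1b, her4.2 and notch1a. All 3 were lower (17.6%, against 1.98% of all genes), and 0 that met it were higher, against 2.1%. Of these, cyp19a1b encodes the aromatase of radial glia, the enzyme that fadrozole inhibits. The marker lists were chosen with earlier results of these data known, so their shares describe the lists and support nothing further. Differences of the 17 ran from -1.11 (cyp19a1b) to 0.35 (sox2). The mean of the 17, which includes these 3, ran from -0.11 to 0.09 on the control arrays and from -0.28 to 0.00 on the fadrozole arrays. For 13 of the 17 the difference was smaller than its own standard error, against 68.7% of all genes. The 3 were selected by their difference, so the lower fadrozole means are not a result about the list. Of 16 genes of newborn neurons and neuroblasts 9 were higher and 7 lower, with a median of 0.04. Here 2 met the rule, both higher (12.5%, against 2.1% of all genes), neurog1 at 1.88 ± 0.62 and ncam1a at 1.25 ± 0.37. For neurog1, control replicate 1 was at 1.71, close to the lowest fadrozole array at 1.84. Its difference was 1.27 in the larger slide run and 3.08 in the smaller. The mean of the 16, which includes these 2, ran from 0.06 to 0.24 on the control arrays and from 0.25 to 0.37 on the fadrozole arrays. For the other 14 genes the difference was smaller than its own standard error, as it was for 68.7% of all genes. The 2 were selected by their difference, so the separation of these means is not a result about the list. Microglia and leukocyte genes mark immune cells that can also divide. Of 17 measured, 7 were higher and 10 lower, with a median of -0.16. The rule was met by ptprc, higher at 1.54 ± 0.56 (5.88%, against 2.1% of all genes), although its groups overlapped. It was met by 0 that were lower, against 1.98%. For spi1b (-0.75 ± 0.36) the fadrozole arrays lay below all control arrays (5.88%, against 3.89% of all genes). The mean of these microglia and leukocyte genes had the widest range among these cell types. It ran from -0.46 to 1.2 on the control arrays and from -0.18 to 0.98 on the fadrozole arrays. Both of the highest values were on replicate 3 of the groups, as were the highest means of mcm2 to mcm7 (0.51 and 0.53). Those MCM means rested on mcm5, at 2.84 (control) and 3.29 (fadrozole). On replicate 3 the other MCM subunits lay between -0.92 and 0.66 (control) and between -0.83 and 0.85 (fadrozole). On the same arrays the mean of 5 pituitary genes was highest too (0.21 and 0.57). Replicate 2 of the groups, the smaller slide run, held the lowest means of 20 hindbrain genes, at -0.58 (control) and -0.94 (fadrozole). On replicates 1 and 3 these means were 0.34 and 0.45 in the control group and 0.29 and 0.12 in the fadrozole group. The mean of 15 telencephalon genes was highest on replicate 2, at 0.33 (control) and 0.15 (fadrozole), against -0.14 to 0.01 on the other arrays. Of 8 oligodendrocyte and myelin genes 4 were higher and 4 lower, with a median of -0.08. For mbpa (0.52 ± 0.23) the fadrozole arrays lay above all control arrays (12.5%, against 3.93% of all genes). The rule was met by pmp22a, higher at 1.33 ± 0.49 (12.5%, against 2.1% of all genes), although its groups overlapped. Among the same 8, pmp22b met it, lower at -1.28 ± 0.26 (12.5%, against 1.98%). Of 6 endothelium genes 0 met it, against 4.08% of all genes. The part of these cell types and regions in the values of the cell cycle genes was not tested. With ratios alone it is not known which markers are near background.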

How the data were processed

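RNA of 6 pools, labelled with biotin, was hybridised to 1-colour Affymetrix zebrafish arrays. The deposited values are ratios per probe set: in all 15617 rows the median of the 3 control arrays was exactly 1. For the scanner software, the probe set summary and any scaling, the sources used here give nothing. The log2 of each ratio was taken, and each array's shift, from -0.14 to 0.25, was removed. It is the median, over probe sets, of the array's value minus the probe set's 6-array mean. The 115 array control probe sets were left out. Probe sets with 1 symbol in GEO's platform annotation (10795 of 15502) were averaged to 8793 genes, while 135 with several symbols and 4572 with none were not named.

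Groups were compared with limma 3.58.1 in R 4.3.3 (lmFit and eBayes, two-sided, Benjamini-Hochberg adjustment over 8793 genes), which was tested on simulated data. Figures were drawn with matplotlib 3.10.9 in Python 3.11.15. Nothing states that the pools came from separate tanks, so the p-values cover array-to-array spread alone, which may be technical, and precision is limited by how few arrays there are. The members and lists were chosen with earlier results of these data known. Levels on every array are given for genes with an unadjusted p under 0.05 or without overlap at 1.5-fold, for pcna, mki67 and mcm2 to mcm7, and, outside that rule and chosen after their values were seen, for cdk1, kif11, kif23 and ccne1. Other listed cell cycle genes are named at an unadjusted p under 0.05 with 1.5-fold change. Outside that rule, haus2, haus4, haus6, gins1 and gins4 were named after the values of haus5 and gins3 were seen. Alternatives were other normalisations, blocks, probe set rules, array weights and leaving out arrays. All 49 genes matched RefSeq by gene number, and promoter and protein sequences were not used here.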

Additional observations from a re-analysis of the deposited data

How the results depend on the processing

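No gene passed the adjusted test under any of the 15 alternatives (limma, smallest adjusted p between 0.365 and 1), and between 178 and 560 genes had an unadjusted p under 0.05. haus5 kept an unadjusted p under 0.05 in all of them (p between 0.000162 and 0.00463), and cdt1 in all but the larger slide run alone. For haus5, listed because of its value in these same arrays, this describes the gene and supports nothing further. Replicate numbers are not stated to pair the arrays, and same-numbered arrays deviated together only weakly (r of 0.07, 0.19 and 0.09 for replicates 1, 2 and 3, over all genes). Over all genes each array correlated best with its own number. Over the 49 genes, control replicate 1 correlated more with fadrozole replicate 3 (0.19) than with fadrozole replicate 1 (0.07). With a replicate block, 1 cell cycle gene was higher (rpa2) and 3 lower at an unadjusted p under 0.05 and 1.5-fold (together 8.16%, against 5.44% of all genes in that fit), where the fit without a block gave 0 and 2 (4.08%, against 4.08%). With the slide run as a block 1 was higher (cdc20) and 3 lower (8.16%, against 4.95% of all genes), and cdk1 was the added lower gene in both fits. In the larger slide run alone 1 was lower (2.04%, against 5.91%). Leaving out 1 array at a time gave 0 to 2 higher and 2 to 6 lower genes. Together these were 4.08% to 14.3% of the cell cycle genes, against 4.16% to 6.37% of all genes in those fits. The median difference was then -0.12 to 0.19, and 20 to 28 genes lay above 0. Between slide runs, plain median centring, no shift removal and quantile normalisation each gave 4 lower and 2 higher genes, and leaving out arrays gave 3 to 8 lower and 1 higher. The shares of all genes in these other slide run fits are not given here. Their counts therefore stand without a background, and whether they differ from that of all genes was not tested. The causes of the differences between fits were not tested, beyond the smaller number of arrays in some fits.

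Of the 49 genes, 19 kept their sign under every alternative and 30 did not, 12 of them outside leave-one-out. In the larger slide run alone the differences that turned were cdc6 0.80, mcm5 -0.15, mcm6 0.55, gins2 -0.58, chaf1b -0.0038, mki67 -0.14, ccnd1 0.04 and aurka -0.65. Quantile normalisation turned fen1 (0.08), ccnb2 (-0.09) and cks1b (-0.01). Array weights turned fen1 (0.09), cks1b (-0.06) and aurka (-0.26). The median of probe sets turned top2a (-0.29) and mki67 (-0.02). Plain median centring turned aurka (-0.04) and, outside the 49 genes, haus6 (-0.0024). Leaving out arrays moved the following across 0, from their lowest to their highest value. Among replication genes these were cdc6 (-1.35 to 1.00), mcm2 (-0.25 to 0.35), mcm3 (-0.96 to 0.0019), mcm6 (-0.82 to 0.67), gins2 (-0.62 to 0.72), rfc3 (-0.55 to 0.02), rfc4 (-0.36 to 0.50), rfc5 (-0.22 to 0.39), rpa1 (-0.19 to 0.0043), rpa3 (-0.06 to 0.27), prim1 (-0.02 to 1.59), fen1 (-0.25 to 0.29), tyms (-1.40 to 0.22) and dut (-0.01 to 0.22). Among chromosome genes they were chaf1b (-0.07 to 0.39), hells (-1.07 to 0.20), top2a (-0.26 to 0.40), smc2 (-0.31 to 0.49) and mki67 (-0.19 to 0.61). Among cyclin and mitosis genes they were cdk2 (-0.02 to 1.21), ccnb2 (-0.41 to 0.86), ccnd1 (-0.23 to 0.01), ccne1 (-0.78 to 1.54), cks1b (-0.49 to 1.17), aurka (-0.68 to 1.03), bub1bb (-0.00049 to 1.01), bub3 (-0.13 to 0.04), mad2l1 (-0.74 to 0.22) and nusap1 (-0.13 to 0.75). Outside the 49 genes, haus6 moved across 0 as well (-0.21 to 0.29). Outside the set, gins3 kept an unadjusted p under 0.05 throughout, and ccnf lost it under quantile normalisation (1.56 ± 0.79, SE) and without fadrozole replicate 1 (1.68 ± 0.66, SE). Without brightness, probe sets near background could not be left out.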

Other observations

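Other subunits of augmin were read after the value of haus5 had been seen. haus2 was at 0.11, -0.22 and -0.14 on control replicates 1, 2 and 3 and at -2.75, -2.25 and 0.27 on fadrozole replicates 1, 2 and 3. Here 2 fadrozole arrays lay far below the controls and 1 above them (-1.49 ± 0.80, SE, limma). haus4 was at 0.48, -0.20 and -0.21 on the control arrays and at -0.92, -2.36 and -0.07 on the fadrozole arrays, so that it overlapped through fadrozole replicate 3 as well (-1.14 ± 0.62). haus6 was at 0.04 ± 0.36. Subunits of the GINS complex were also read after the value of gins3, 1.47 ± 0.31, had been seen, and their differences from it were not tested. gins1 was at 0.25 ± 1.01, gins2 at 0.17 ± 0.70 and gins4 at -0.88 ± 0.89.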
